A study of Mchenga conophoros and Petrotilapia sp. 'chitimba' with 16 samples.

Results

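The loci described here are assembled RNA segments that lie wholly inside an intron of an annotated gene. A transcript assembler joined the sequenced fragments into loci, each locus was compared with the gene annotation, and class code i marks a locus contained in a reference intron. All loci with class code i and at least 1 count in any library were taken, which gave 12751 of 61384 loci in the table. They are set against loci of class code =, which match an annotated transcript. Of the 12751 intronic loci, 12209 had a class = locus of the same gene name, called the host below.

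RNA was sequenced from whole brains of 8 adult male Lake Malawi cichlids. 4 were Petrotilapia sp. 'chitimba' (PC) and 4 were Mchenga conophoros (MC), and the study design states that mirrors elicit different aggression in them. A mirror was placed in the tank of 2 fish per species for 15 min, the other 2 served as controls, and brains were taken 90 min later. Each fish gave 2 libraries, RNA bound to ribosomes carrying phosphorylated protein S6 and recovered by immunoprecipitation (IP), and total RNA of the same cleared brain lysate (input). Mirror fish were 12 and 23 (PC) and 9 and 21 (MC). Control fish were 11 and 24 (PC) and 10 and 22 (MC). Each of 2 processing batches held 1 fish per species and condition. Each fish is a separate animal, and with whole brains fewer cells of a type and less RNA per cell cannot be told apart.

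Introns are copied into the primary transcript and removed in the nucleus by splicing, so mature messenger RNA on ribosomes normally lacks them. RNA from intron positions can come from unspliced precursors, from introns kept in a messenger RNA, from short genes of their own nested in the intron, or from an exon that the annotation lacks. Phosphorylation of ribosomal protein S6 follows neuronal activity, and the IP is used to favour transcripts of recently active cells.

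The intronic loci were short and mostly sparse. Their median length was 419 bp (quartiles 291 and 664 bp), and the median of the mean level over the 8 inputs was 0.357 CPM (counts scaled to the library total in the usual unit), against 3.67 CPM for the host loci. A strand was stated for 520 of them, 261 plus and 259 minus. Of the 4597 gene names that held intronic loci, 2632 held 1, and 205 gene names with 10 or more held 4068 of the loci. Shares by genomic span were taken over annotated genes whose class = locus had at least 1 count. The share with an intronic locus was 2.17% for spans under 5 kb and 77.7% for spans over 100 kb. It was 15.0%, 39.0% and 58.7% in the 3 classes between. Of 11218 that lay within the span of the host, 4349 were in the first of 3 equal stretches counted along the direction of transcription, 3907 in the middle one and 2962 in the last.

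The hosts with the most intronic loci were lsamp, a cell adhesion protein of limbic neurons, with 95, csmd1, a large membrane protein with complement-type domains, with 67, nell1, a secreted glycoprotein, with 67, LOC101485494 with 66, and ptprf, a receptor tyrosine phosphatase of axons, with 60. Among gene groups, 23 of 28 long neuronal adhesion and synapse genes held intronic loci, 433 in all. That share of 82.1% compares with 14.98% of all 29206 annotated gene names. Of glutamate and GABA receptor genes 11 of 19 held one, and of voltage-gated and calcium channel genes 16 of 35. Ribosomal protein and other genes whose introns carry small nucleolar RNAs in vertebrates held few, 2 of 72, and splicing factor genes 4 of 46. None of 10 immediate early genes, which neuronal activity switches on, held an intronic locus. The median genomic span was 229280 bp for the adhesion genes, 99515 bp for the receptors, 52154 bp for the channels, 9454 bp for the splicing factors, 3872 bp for the genes with small nucleolar RNAs, 3745 bp for the immediate early genes and 6877 bp over all genes. The splicing factor genes thus had a longer span than all genes and a lower share with an intronic locus, 8.70%. The 4 of them that held any had 37 intronic loci in all. The receptor genes held 79, the channel genes 80 and the genes with small nucleolar RNAs 7. These shares and numbers were not tested.

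Intronic loci took a larger share of counts in IP than in input in every fish, and a larger share in MC than in PC in both fractions. In PC fish 12, 23, 11 and 24 they took 0.802%, 1.11%, 1.27% and 0.963% of the IP counts, against 0.767%, 0.566%, 0.625% and 0.610% of the input counts. In MC fish 9, 21, 10 and 22 they took 2.33%, 2.61%, 3.29% and 1.74% of the IP counts, against 2.11%, 1.86%, 1.60% and 1.22% of the input counts. The IP share was 1.05 to 2.06 times the input share of the same fish, and the difference averaged 0.596 ± 0.499 percentage points (SD, n = 8 fish). Intergenic loci of class u had a higher share in IP than in input in 4 of 8 fish. These shares are sums over the chosen loci and carry no test. Markers of brain cell types also differed between the fractions. The summed level of 4 radial glia and astrocyte markers was 1564 to 3553 CPM in PC IP and 1200 to 1719 CPM in MC IP, against 6513 to 10937 CPM in PC input and 4365 to 5724 CPM in MC input. For 3 microglia markers it was 49.1 to 103 CPM in PC IP and 0 to 38.3 CPM in MC IP, against 236 to 383 CPM in PC input and 392.5 to 539 CPM in MC input. Both sums were thus lower in every IP library than in any input of the same species. The 5 neuronal markers had 1630 to 2800 CPM in PC IP and 1193 to 4121 CPM in MC IP, against 2397 to 3962 CPM in PC input and 4069 to 5375 CPM in MC input. The 4 oligodendrocyte markers had 188 to 715.5 CPM in PC IP and 37.9 to 438 CPM in MC IP, against 236 to 779.5 CPM in PC input and 995 to 1299 CPM in MC input. The neuronal ranges of IP and input overlapped in both species and the oligodendrocyte ranges in PC. The part of these markers in the difference between fractions was not tested.

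**Figure D1:**
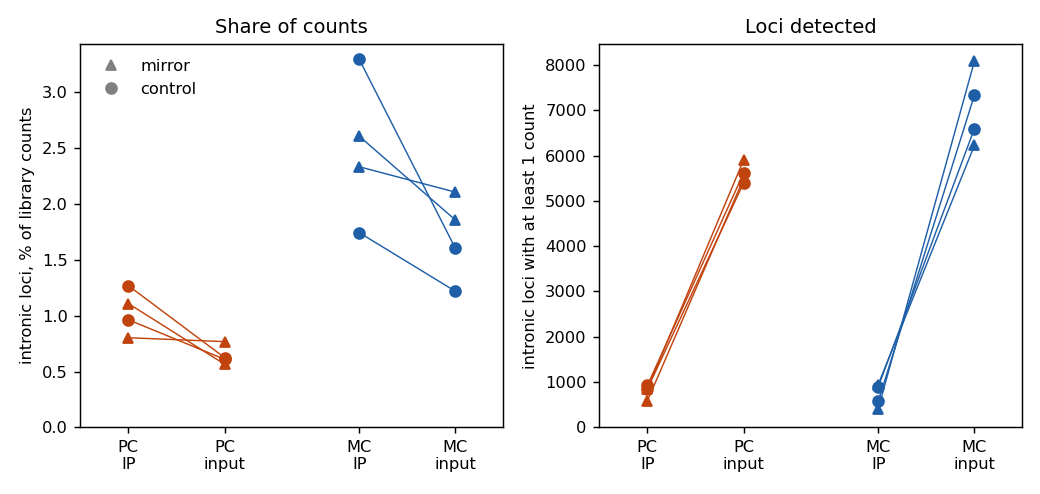
Left, the percentage of each library's counts on intronic loci; right, the number of intronic loci with at least 1 count. Each line joins the IP library (left end) and the input library (right end) of 1 fish, for 4 PC and 4 MC fish. Triangles are mirror fish and circles control fish. All lines of the left panel run down towards the input, and in the right panel IP libraries hold 411 to 947 loci, against 5396 or more in the inputs.

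The species did not overlap in input. The PC inputs lay between 0.566% and 0.767% and the MC inputs between 1.22% and 2.11%. The difference of means was -1.05 percentage points, and the spread between fish within a species was 0.275 percentage points (pooled SD, n = 4 fish each). Within batch a, PC inputs held 0.625% and 0.767%, against 1.60% and 2.11% in MC inputs. Within batch b, PC inputs held 0.566% and 0.610%, against 1.22% and 1.86% in MC inputs. Run-on loci next to genes, class p, also took less in PC inputs, 0.808% to 1.29%, against 1.63% to 2.10% in MC inputs.

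More separate intronic loci were found in MC inputs too. PC inputs had counts on 5396 to 5899 loci, against 6222 to 8079 in MC inputs. At the depth of the shallowest input, 10073251 counts, PC inputs would have had 4950 to 5501 loci and MC inputs 6199 to 8062. Per 1000 counts of the hosts, intronic loci had 129.5 to 152 counts in PC inputs and 209 to 368 in MC inputs. The median log2 ratio of locus to host, with 1 count added to both, lay between -5.17 and -4.46 in PC inputs and between -3.91 and -2.89 in MC inputs. A locus at 0 gives a ratio set by its host counts, so this median depends on depth. PC inputs of fish 12 and 23, with 22058698 and 23594320 counts, had -5.17 and -4.81. Those of fish 11 and 24, with 10940859 and 12190271 counts, had -4.46 and -4.52. MC inputs had 10073251 to 10904974 counts. The ratio was not matched for depth.

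Markers of brain cell types moved with the species as well. By the input levels given above, the neuronal (5 of 10 listed markers matched), oligodendrocyte (4 of 7) and microglia (3 of 6) sums were lower in all PC than in all MC inputs. The radial glia and astrocyte sum (4 of 8, 1 of them at 0 in all inputs) was higher in all PC inputs. The part of cell type makeup in the species difference was not tested.

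In IP the intronic signal fell on fewer loci than in input and often in 1 library. IP libraries held counts on 411 to 947 intronic loci. Class = loci were fewer in IP too, 2318 to 6857 per library against 14924 to 18541 in inputs. The 10 most abundant loci of an IP library took on average 17.05% of intronic counts and 28.73% of class = counts. In fish 22, 23 and 24 the intronic share of these 10 was the larger. Total counts of the IP libraries were 1872019 to 11186928, against 10073251 to 23594320 in the inputs. Of the 12751 loci, 241 were seen in IP only, 9380 in input only and 3130 in both. Loci found in a single IP library were 2250 of the 12751 intronic loci and 4138 of the 22720 class = loci. They took 33.4% of the intronic counts in IP, against 1.98% of the class = counts. These shares of counts were not matched for abundance. Of 1540 intronic loci with 100 or more IP counts, 778 had all of them in 1 library, 50.5%, and the same was true of 3 of 2202 loci in the inputs. This was not counted for class = loci. Examples from IP are an intronic locus of lg1h15orf59 with 249 IP counts, all in MC fish 9, and one of wdr46, a nucleolar protein of ribosome assembly, with 395 IP counts, all in PC fish 11.

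A small set of intronic loci was recovered in every library. Among loci at 10 to 30 CPM in input, 22.97% of intronic loci had counts in all 8 IP libraries, against 2.42% of class = loci. At 30 to 100 CPM it was 65.0% against 11.3%, and at 3 to 10 CPM 9.57% against 0.693%. Intergenic loci lay between, with 3.70%, 7.10% and 11.3% in these 3 ranges from the lowest. In all, 116 intronic loci of 108 gene names had counts in all 16 libraries.

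**Figure D2:**
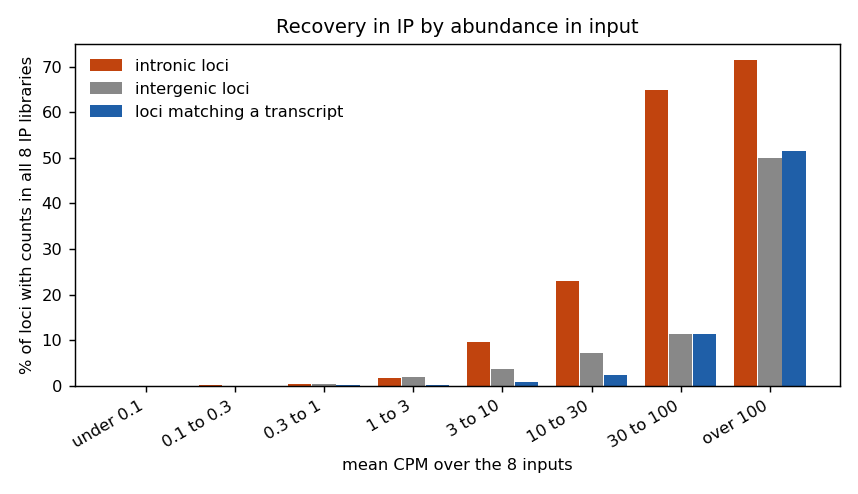
Percentage of loci with counts in all 8 IP libraries (y axis) by mean level over the 8 inputs in CPM (x axis), for intronic loci, intergenic loci and loci matching an annotated transcript. From 3 CPM upwards the intronic bar is the tallest in each range, at 22.97% against 2.42% for matching loci in the range of 10 to 30 CPM.

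These 116 loci held 20.8% of all intronic counts in IP and 17.5% in the inputs. Their mean input level was often low, under 10 CPM for 69.8% of them, against 5.74% of the 784 class = loci with counts in all 16 libraries. A strand was stated for 23.3% of them, against 4.08% of all intronic loci. A host locus existed for 113 of the 116. The host itself had 0 counts in 4 or more IP libraries in 83 cases and 0 in all 8 in 24 cases. Zeros in IP were common for class = loci in general, with 10058 of 22720 at 0 in all 8 IP libraries. 41 of the 116 had a higher CPM in IP than in input in 8 of 8 fish and 1 had a lower CPM in 8 of 8. The median log2 ratio of mean IP to mean input CPM was 0.95 (quartiles 0.57 and 1.29). Since these loci were picked for having counts in every IP library, the ratio is a description. Direction in 8 of 8 fish was not counted for the 784 class = loci picked the same way. Per fish, the median log2 ratio of IP to input CPM was -0.043 to 0.641 for the 784, against 0.280 to 1.56 for the 116. CPM are per library total here. In the edgeR fit below, 9 of 4731 tested intronic loci were called higher in IP.

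**Figure D3:**
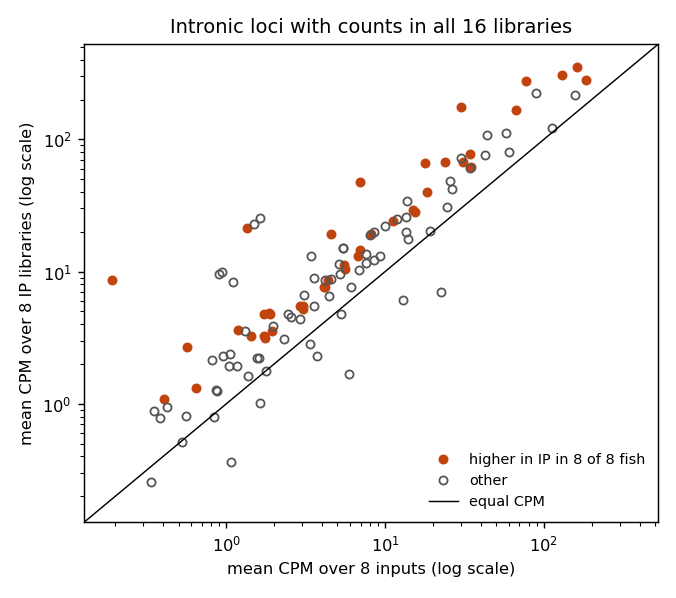
Mean CPM over the 8 IP libraries (y axis) against mean CPM over the 8 inputs (x axis), both on log scales, for the 116 intronic loci with counts in all 16 libraries. Filled points are the 41 loci higher in IP in 8 of 8 fish, and most points lie above the line of equal CPM.

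The most abundant of them in input was a locus of 255 bp in nf1, the gene of the Ras regulator neurofibromin, at NC_036793.1:2467570-2467824, no strand stated. It had 192, 173, 195 and 172 CPM in IP of PC fish 12, 23, 11 and 24, against 148, 143, 145 and 139 CPM in their inputs. In MC fish 9, 21, 10 and 22 it had 490, 394, 436 and 199 CPM in IP, against 301, 213, 202 and 188 CPM in input. Its level was higher in IP in every fish, and it had 1583 to 3373 counts per input, against 18 to 194 for the nf1 transcript itself.

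A locus in ncoa3, a coactivator of nuclear receptors, lay at NC_036799.1:19100435-19100916 on the minus strand, opposite to the plus strand ncoa3 transcript. It had 120 to 218 CPM in PC IP and 102 to 128 CPM in PC input. In MC it had 182 to 779 CPM in IP and 160 to 274 CPM in input. A minus strand locus of 640 bp in LOC101464438 had 120 to 191 CPM in PC IP and 76.7 to 103 CPM in PC input, and its levels in MC were 191 to 660 CPM in IP and 125 to 238 CPM in input. Both were higher in IP in 8 of 8 fish.

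In stxbp6, which binds the SNARE proteins of vesicle fusion, an intronic locus of 292 bp had 76.0 to 134 CPM in PC IP and 42.2 to 47.4 CPM in PC input, and 130 to 730 CPM in MC IP and 75.8 to 149 CPM in MC input. 2 further loci of this kind sat in dcaf1, a substrate receptor of a ubiquitin ligase, and 1 each in urod, an enzyme of haem synthesis, asap1, a regulator of Arf GTPases, and ryr2, a calcium release channel. Of these, the second dcaf1 locus was higher in IP in 8 of 8 fish, asap1 in 7, the first dcaf1 locus in 5, and urod and ryr2 in 4 each. Not all abundant intronic loci were seen throughout. A locus in gtf2e2, a general transcription factor, had 0 counts in IP of fish 23, 10 and 22 and 28.2 to 131 CPM in the other 5 IP libraries, against 86.2 to 158 CPM in all 8 inputs.

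The 116 loci varied together between libraries. Over the 8 IP libraries, the median Pearson correlation of log2 CPM between pairs of them was 0.734, against 0.0249 between pairs of the 784 class = loci seen in all libraries. Over the 8 inputs it was 0.573 against 0.0925. Loci of a library share its depth, its species and its normalization, and the values are given as a description. Their summed level was 1921 to 2386 CPM in PC IP and 2942 to 7574 CPM in MC IP, and 1371 to 1664 CPM in PC input and 2039 to 3057 CPM in MC input. The highest IP sums, 7574 CPM in MC fish 10 and 7384 CPM in MC fish 9, belong to the IP libraries with the lowest totals, 2715091 and 1872019 counts.

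Tested locus by locus with edgeR's quasi-likelihood test, 9 intronic loci were higher and 2292 lower in IP than in input, of 4731 that passed the low-count filter. Over all loci tested, 0.331% were higher and 57.4% lower, so the intronic share of lower calls, 48.4%, was below the background. The median log2 fold change was -4.64 for intronic loci, -5.33 for class = loci and -4.97 for all loci. The fit averages groups on a log scale, so a group at 0 in IP weighs heavily in these values. They are not ratios of summed levels. Summed over loci at 1 to 3, 3 to 10 and 10 to 30 CPM in input, IP CPM was 1.10, 1.21 and 1.12 times input CPM for intronic loci. For class = loci it was 0.971, 0.910 and 0.928 times. The part of the zeros in the medians was not tested. With the fish as a block, which pairs the 2 libraries of a fish, 0 intronic loci were higher and 0 lower, and 656 had an unadjusted p under 0.05. Over all loci the block left 0.027% higher and 0.585% lower.

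3 of the 9 intronic loci called higher met the rule for naming, with the same direction in all 8 fish. The locus of 499 bp in LOC101474122 had 79.5, 39.4, 29.1 and 103 CPM in IP of PC fish 12, 23, 11 and 24, against 14.5, 9.71, 5.76 and 9.52 CPM in input. In MC fish 9, 21, 10 and 22 it had 255, 99.7, 18.8 and 347 CPM in IP, against 4.78, 0, 1.59 and 4.76 CPM in input. Its log2 fold change was 3.96 ± 1.15 (SE, edgeR adjusted p = 0.013), and IP and input did not overlap. The call was lost without any one of fish 11, 12, 22, 23 or 24, and in each batch alone.

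A locus of 7988 bp on the minus strand in nek11, a kinase of the DNA damage checkpoint, had 21.4 to 51.8 CPM in PC IP and 4.15 to 11.97 CPM in PC input, and 24.3 to 130.2 CPM in MC IP and 4.40 to 7.64 CPM in MC input (log2 fold change 2.31 ± 0.84 SE, edgeR adjusted p = 0.0339). The nek11 transcript had 0 counts in 7 of 8 inputs and 28 in MC fish 22. The other, in LOC101484287, had 85.9 to 158 CPM in PC IP and 19.6 to 33.4 CPM in PC input, and 108 to 532 CPM in MC IP and 28.8 to 37.3 CPM in MC input (log2 fold change 1.92 ± 0.62 SE, edgeR adjusted p = 0.0208). The nek11 call was lost without any one fish, the LOC101484287 call without any one fish other than fish 10, and both in each batch alone.

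Several of the loci called lower had no or nearly no counts in IP. An intronic locus of 1709 bp in fancb, a protein of DNA crosslink repair, had 0 counts in all 8 IP libraries, against 6.67 to 19.8 CPM in PC inputs and 13.8 to 34.9 CPM in MC inputs. Against a floor of 3 counts over the 8 IP libraries the fancb locus was at least 315-fold lower in IP, for counting error alone (edgeR adjusted p = 0.00124). Loci in csmd1 and tcf4, a transcription factor of neurons, had 1 count each in all IP libraries together, against 448 and 729 counts in input.

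A locus of 3899 bp in shisa9, an auxiliary subunit of AMPA receptors, had 31.4, 1.07, 52.9 and 3.53 CPM in IP of PC fish 12, 23, 11 and 24, against 63.0, 34.2, 43.8 and 45.0 CPM in input. In MC fish 9, 21, 10 and 22 it had 1.07, 0.109, 0 and 0 CPM in IP, against 62.5, 54.0, 76.4 and 81.1 CPM in input. The log2 fold change was -6.24 ± 1.18 (SE, edgeR adjusted p = 0.00225). PC fish 11 alone had a higher level in IP than in input on this scale of library totals, which differs from the TMM scale of the fit. The difference between the species in its IP enrichment was 8.38 on the log2 scale (PC minus MC, SE 2.09, edgeR adjusted p = 0.361), which did not pass the threshold.

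No intronic locus passed for a species difference of IP enrichment in edgeR, with 120 at an unadjusted p under 0.05 and 0.0372% of all loci called. DESeq2 called 88 and limma-voom with fish as a random effect 2, with no share over all loci beside these counts. The smallest p belonged to a locus of 209 bp in supt20h, a subunit of chromatin-modifying complexes, with 3, 14, 27 and 49 counts in IP of PC fish 12, 23, 11 and 24 and 0 in all 4 MC IP libraries. Its inputs had 88, 98, 37 and 77 counts in PC and 16 to 21 counts in MC (difference of IP enrichment 6.37 ± 1.54 SE on the log2 scale, edgeR adjusted p = 0.356).

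Between species, 27 intronic loci were higher and 83 lower in PC than in MC inputs, of 4450 tested. Over all loci tested, 8.16% were higher and 2.28% lower, against 0.607% and 1.87% of intronic loci. The median log2 fold change was -1.63 for intronic loci, 0.32 for class = loci, -0.51 for intergenic loci and 0.03 for all loci, and 81.9% of tested intronic loci had a value below 0. The filter kept a locus with enough counts in 2 libraries, so a sparse locus could pass through its MC inputs alone. Counts of 10 or more fell on 2818 to 5192 intronic loci per MC input and on 1391 to 3326 per PC input. The part of the filter in these values was not tested. Of the 110 calls, 109 had the same sign within batch a and 110 within batch b. The calls were made on these same inputs, so the signs are a description and not a separate check. The count was 74 to 265 when 1 fish was left out, 265 without MC fish 9 and 219 without MC fish 21, with 7629 to 9476 intronic loci then passing the filter. In a fit of all 16 libraries, whose shared spread includes the IP libraries, 0 were called, with 545 at an unadjusted p under 0.05, and DESeq2 called 630. The counts of these refits have no share over all loci beside them.

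The largest fitted difference among the 110 was a locus present in one species alone. It spans 819 bp at NC_036797.1:27815833-27816651 inside LOC101470953, whose transcript runs on the plus strand from 27812208 to 27844020. It had 0 counts in all 8 PC libraries. The IP libraries of MC fish 9, 21, 10 and 22 had 48, 1313, 1025 and 6159 counts (25.6, 144, 378 and 665 CPM), and their inputs had 4781, 5085, 5226 and 5497 counts (457, 466, 490 and 546 CPM). Against a floor of 3 counts over the 4 PC inputs it was lower in PC by at least 13.46 on the log2 scale, for counting error alone (edgeR adjusted p = 7.5e-05). Whether PC reads align to this locus as well as MC reads was not tested.

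The host transcript was found in both species. It had 426, 238, 164 and 194 counts in PC inputs of fish 12, 23, 11 and 24, against 263, 344, 278 and 305 counts in MC inputs of fish 9, 21, 10 and 22, and its own log2 fold change was -0.59 ± 0.27 (SE, edgeR adjusted p = 0.211). The difference of locus minus host was -10.93 ± 0.75 on the log2 scale (SE, limma adjusted p = 0.0015). It passed in each of the 13 alternatives tried for it.

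**Figure D4:**
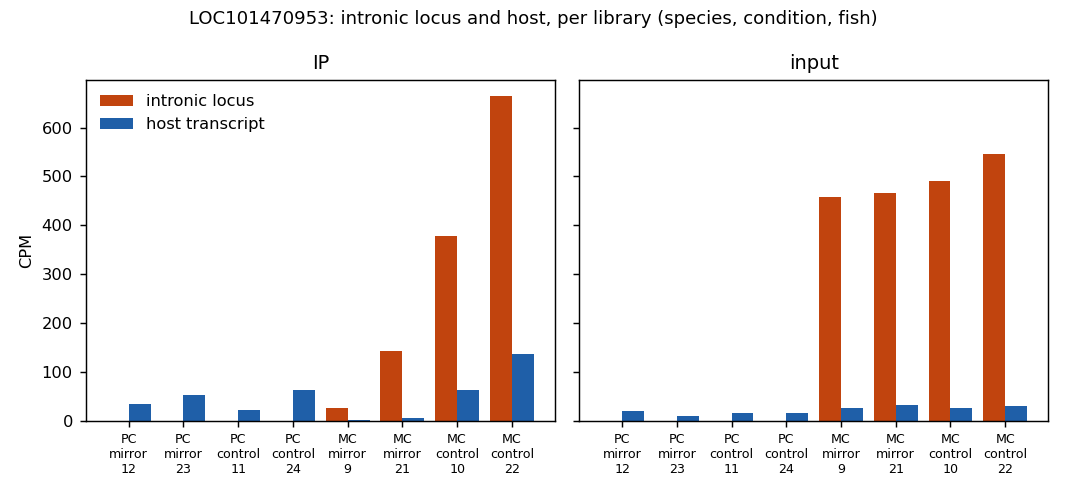
CPM (y axis) of the intronic locus and of the host transcript LOC101470953 in each library, IP on the left and input on the right, labelled by species, condition and fish. The intronic locus is at 0 in all PC libraries and at 457 to 546 CPM in MC inputs, where the host stands far lower.

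Loci seen in all inputs of one species and no input of the other were counted without a test. With at least 10 counts required, 3 intronic loci were seen in PC inputs alone and 9 in MC inputs alone, 0.0235% and 0.0706% of intronic loci, against 0.263% and 0.0914% of all loci. With at least 1 count, 43 were seen in PC alone and 103 in MC alone, 0.337% and 0.808%, against 0.888% and 0.483% of all loci. Class = loci were split the other way at 10 counts, with 64 in PC inputs alone and 7 in MC inputs alone. The 3 loci of PC inputs alone lay in LOC101474568 (13780 bp, minus strand, 56 to 104 counts per PC input), fbrsl1 (1850 bp, plus strand, 19 to 34 counts) and LOC101467109 (784 bp, 12 to 31 counts). The LOC101474568 and fbrsl1 loci are on the strand opposite to their hosts. After LOC101470953, the highest levels among the 9 loci were those in r3hdm2, with 28 to 122 counts per MC input, and LOC101484496, with 15 to 82. The LOC101484496 locus was at 0 in the PC inputs only, with 4 counts in IP of PC fish 11 and 2 in IP of PC fish 23.

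The loci called higher in PC included several with low levels in MC inputs. A minus strand locus in LOC101478713, whose transcript runs on the plus strand, had 17.5, 7.76, 8.13 and 13.7 CPM in PC inputs of fish 12, 23, 11 and 24, against 0, 0, 1.41 and 5.96 CPM in MC inputs of fish 9, 21, 10 and 22 (log2 fold change 6.34 ± 0.88 SE, edgeR adjusted p = 0.00388). A plus strand locus of 1879 bp in LOC101486865 had 14.5 to 31.3 CPM in PC and 1.19 to 4.27 CPM in MC inputs (log2 fold change 3.29 ± 0.41 SE, edgeR adjusted p = 0.00174). An intronic locus of elovl6, a fatty acid elongase, had 4.76 to 11.7 CPM in PC inputs and 0 to 2.29 CPM in MC inputs (log2 fold change 4.02 ± 0.83 SE, edgeR adjusted p = 0.0164). The groups did not overlap in any of these 3, which the rule for naming required. The elovl6 transcript did not pass, with a log2 fold change of 0.25 ± 0.20 (SE, edgeR adjusted p = 0.468).

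A locus of 255 bp in LOC101486412 was high in PC in both fractions. Its PC fish 12, 23, 11 and 24 had 12.9, 202, 7.604 and 221 CPM in IP and 13.2, 10.2, 6.86 and 21.4 CPM in input. MC libraries had at most 0.219 CPM in IP and at most 1.59 CPM in input (log2 fold change in input 5.03 ± 0.91 SE, edgeR adjusted p = 0.00931). A plus strand locus in LOC101474103, whose minus strand transcript had 0 counts in all 8 inputs, had 36.5 to 89.6 CPM in PC inputs and 7.61 to 19.9 CPM in MC inputs (log2 fold change 2.25 ± 0.41 SE, edgeR adjusted p = 0.00915).

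Of the loci called lower in PC, one in nebl, an actin-binding protein of the nebulin family, had 0.170 to 0.328 CPM in PC inputs and 11.1 to 18.1 CPM in MC inputs (log2 fold change -5.52 ± 0.56 SE, edgeR adjusted p = 0.000884), and 0 counts in all IP libraries. One in LOC112435423 had 10.8, 6.06, 0.366 and 0.164 CPM in PC inputs of fish 12, 23, 11 and 24, against 17.8, 49.5, 32.5 and 63.8 CPM in MC inputs of fish 9, 21, 10 and 22 (log2 fold change -4.31 ± 0.49 SE, edgeR adjusted p = 0.00133). The PC mirror fish stood above the PC control fish there, and the MC mirror and control fish overlapped.

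An intronic locus of epha8, an ephrin receptor, had 0.366 to 2.18 CPM in PC inputs and 4.96 to 15.5 CPM in MC inputs (log2 fold change -2.72 ± 0.63 SE, edgeR adjusted p = 0.0277), and the call was lost without fish 10 or fish 11. In LOC106676321 a plus strand locus had 0.593 to 2.45 CPM in PC inputs, against 5.63 to 17.1 CPM in MC inputs (log2 fold change -2.68 ± 0.63 SE, edgeR adjusted p = 0.0283), and the call was lost without fish 22 or fish 23. In IP it had 0 to 24.2 CPM in PC and 56.1 to 363 CPM in MC, and these ranges did not overlap either.

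The same direction appeared in the hosts with most intronic loci, summed per host. The 95 loci of lsamp had 11.5 to 28.6 CPM in PC inputs and 48.9 to 96.8 CPM in MC inputs, and the lsamp transcript had 19.2 to 34.6 CPM in PC and 54.2 to 82.2 CPM in MC. The lsamp transcript itself was lower in PC (log2 fold change -1.06 ± 0.23 SE, edgeR adjusted p = 0.0191). In csmd1 the 67 loci had 16.6 to 22.6 CPM in PC and 59.9 to 125 CPM in MC inputs. In ptprf the 60 loci had 17.4 to 33.9 CPM in PC and 59.6 to 93.9 CPM in MC inputs, while the ptprf transcript overlapped, with 16.3 to 27.2 CPM in PC and 17.3 to 29.2 CPM in MC. All 15 hosts drawn had lower summed levels in every PC input than in every MC input. These hosts were chosen for their number of loci, and a locus seen in MC alone adds to that number and to the MC sum. Only 2 of the 95 lsamp loci, 10 of the 67 csmd1 loci and 7 of the 60 ptprf loci had counts in all inputs. The sums are thus a description, carry no test and are not separate from the larger number of loci found in MC inputs.

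**Figure D5:**
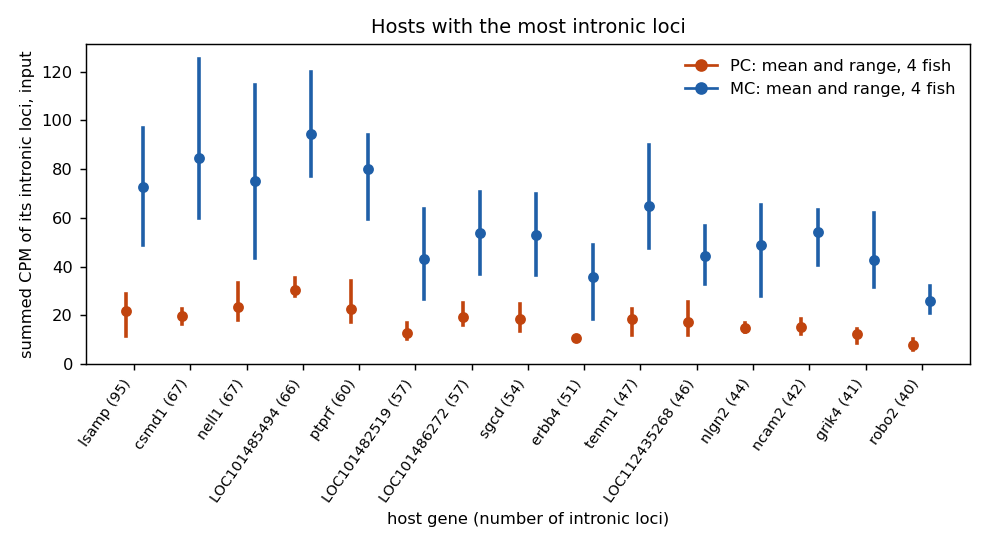
Summed CPM of all intronic loci of a host (y axis) in inputs, for the 15 host genes with the most intronic loci (x axis, number of loci in brackets). Points are means and bars the range over 4 PC fish and 4 MC fish. The PC range lies below the MC range for every host.

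By gene group, 170 loci of the adhesion and synapse genes were tested between species, with 0 higher and 2 lower, one each in erbb4, a neuregulin receptor, and lsamp. Their median log2 fold change was -1.62. Of 42 loci in glutamate and GABA receptor genes, 1 was higher (median -2.13), and of 33 in channel genes none passed (median -2.18). Of 3 tested loci in genes with small nucleolar RNAs (median -0.96) and 21 in splicing factor genes (median -1.51), none passed. For all intronic loci the median was -1.63. Against input, 103 of 172 loci of the adhesion genes were lower in IP, 23 of 47 of the receptor genes, 15 of 37 of the channel genes and 16 of 23 of the splicing factor genes, and none was higher. These counts stand beside 48.4% lower over all tested intronic loci and 57.4% over all loci. No locus of these groups passed for mirror against control in input.

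The receptor locus higher in PC was in grm8, a metabotropic glutamate receptor, on the minus strand. It had 92, 98, 12 and 46 counts in PC inputs of fish 12, 23, 11 and 24, against 2 counts in MC fish 10 and 0 in the other MC inputs. The log2 ratio of these counts per total was 6.25, with a 95% exact binomial interval of 4.38 to 9.30 for counting error alone (edgeR adjusted p = 0.028). The grm8 transcript went the other way, with a log2 fold change of -1.23 ± 0.26 (SE, edgeR adjusted p = 0.0195).

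Of the 110 intronic loci called between species, 85 had a tested host. The host was called in the same direction in 2 cases, in the opposite direction in 3 and not at all in 80. Over all loci tested in the inputs 8.16% were higher and 2.28% lower, so most loci of any kind were not called. Over 3970 tested pairs, locus and host had log2 fold changes of the same sign in 2046. Taken as locus minus host with limma, 6 intronic loci were higher and 47 lower in PC, 0.151% and 1.18% of intronic pairs. Over all 5877 pairs tested, which include other loci that share a gene name, 0.221% were higher and 1.21% lower. The intronic shares were thus no higher than those over all pairs. The median was -1.22 for intronic pairs and -1.14 for all pairs, over pairs that passed the same low-count filter. The count of intronic loci called rested on single fish. It was 1 without any one of fish 11, 12, 21, 23 or 24, 3 without fish 10, 16 without fish 22 and 300 without fish 9.

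Few intronic loci outweighed a well expressed host. Of 2432 pairs whose host had at least 100 counts in every input, 12 had more counts than the host, and the median ratio was 0.0142. Among them, after LOC101470953 with 9.31 counts per host count, were loci in stxbp6 with 3.42 and rara, the retinoic acid receptor alpha, with 2.32. Next were loci in c6, a complement component, with 2.23 and shisa9 with 2.14. Pairing was by gene name, and 11218 of the 12209 loci with a host lay within its span. The rara locus did not, at 8098508 to 8098742 against a host at 7959474 to 8000841. In IP, 57.8% to 82.3% of pairs were at 0 for both locus and host. Summed over all pairs, intronic loci had 272 to 407 counts per 1000 host counts in PC IP and 338 to 658 in MC IP, and the value was higher in IP than in the input of the same fish in 8 of 8.

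Mirror exposure gave no intronic call in edgeR with its default low-count filter and all fish. In input, 0 of 4450 passed for mirror against control, with 95 at an unadjusted p under 0.05 and 0.0104% of all loci called, and DESeq2 called 6. Without the filter edgeR called 12, and without 1 fish 3 to 9. For the species difference of the mirror effect it was 0, with 115 at an unadjusted p under 0.05 and 0.0104% of all loci called, and DESeq2 called 11. Without the filter edgeR called 14 there, and without 1 fish 2 to 16. For the mirror effect on IP enrichment and for its species difference it was 0 of 4731, with 86 and 105 at an unadjusted p under 0.05 and 0% of all loci called in both, and DESeq2 called 78 and 87. Relative to the host, 0 of 3970 passed in limma, with 249 at an unadjusted p under 0.05 and 0% of all pairs called. The DESeq2 and refit counts for mirror exposure have no share over all loci beside them.

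The locus with the smallest p for mirror against control in input was that of LOC112435423 (log2 fold change 2.27 ± 0.47 SE, edgeR adjusted p = 0.523). Its mirror inputs had 10.8 and 6.06 CPM in PC and 17.8 and 49.5 CPM in MC, against 0.366 and 0.164 CPM in PC controls and 32.5 and 63.8 CPM in MC controls. The intronic share of counts in PC inputs was 0.767% and 0.566% in mirror fish, around 0.625% and 0.610% in controls. In MC inputs it was 2.11% and 1.86% in mirror fish and 1.60% and 1.22% in controls, with 2 fish per group and no test.

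The authors' deposited table lists 491 intronic loci as higher and 2353 as lower in IP among 7431 with an adjusted p, so that 38.27% of these intronic loci are called, against 44.59% of all loci with an adjusted p. For the mirror effect on IP enrichment the authors' deposited table lists 28 intronic loci as higher and 41 as lower of 1561, which is 4.42% called against 4.22% of all loci. For its species difference the authors' deposited table lists 16 as higher and 18 as lower of 914, which is 3.72% called against 6.63% of all loci.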

How the data were processed

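The authors deposited raw counts per assembled locus for the 16 libraries. Per the submitters' processing notes, cutadapt, HISAT2, StringTie and DESeq2 were used. The sources used here name no version, setting, library strand or genome build, so coordinates are those of the deposited table (1-based). Brain lysates were cleared by centrifugation before the input was taken, per the labels' protocols. The authors also deposited DESeq2 tables of log2 fold changes and adjusted p-values, in which a value of 100 in place of an adjusted p was read as missing.

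Totals were 1872019 to 11186928 counts in IP libraries and 10073251 to 23594320 in inputs. A locus at 0 can stand below 3 counts, which is 0.268 to 1.60 CPM in IP and 0.127 to 0.298 CPM in inputs, for counting error alone. CPM are per library total.

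All tests were fitted on the whole table in R 4.3.3 with edgeR 4.0.16 (TMM, filterByExpr, quasi-likelihood F tests, 1 coefficient per group plus batch), two-sided, with Benjamini-Hochberg adjustment over all tested loci and a threshold of 0.05. Species and mirror comparisons in input used the 8 inputs, the others all 16 libraries. Locus minus host used limma 3.58.1 on log2 CPM with a prior count of 2 and the class = locus with most counts as host. Alternatives used DESeq2 1.42.0, other filters, scalings and priors, each batch, the fish as a block and leaving out each fish. The fish pairs IP and input because both libraries come from 1 brain. The correlation of their deviations from group means over 498 abundant loci was 0.642, 0.218, 0.13 and 0.063 in PC control, PC mirror, MC control and MC mirror fish. Scripts were tested on simulated data.

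Loci were named by rule: past the threshold, mean log2 CPM above 1, groups not overlapping (or 8 fish of 1 sign), the 10 highest and 10 lowest, plus the 5 smallest p where fewer passed, the 10 most abundant in input and IP, the 10 highest against their host, the 5 hosts with most loci, and listed gene groups. Loci of 1 IP library, of 1 species, the sets seen in all libraries and grm8, erbb4 and lsamp were named after their values were seen. 1 result among the listed gene groups is not reported here. Members and lists were chosen with earlier results of these data known. Overlapping or repeated sequence can share reads, and without a stated strand an intronic locus cannot be told from antisense RNA. Where a strand is stated it can be opposite to that of the host. This was so for the loci named in ncoa3, fancb, shisa9, lg1h15orf59, LOC101478713, LOC106676321, LOC101474103, fbrsl1 and LOC101474568. Such loci were kept among the intronic loci, and their number was not counted.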

Additional observations from a re-analysis of the deposited data

Results flagged for a closer look

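In MC inputs, the 10 most abundant intronic loci of each library took 13.96% of the intronic counts in fish 22, against 10.37% to 10.72% in fish 9, 10 and 21, and fish 22 stood apart by a gap of 0.902 of the group's range. This was the only value to do so among 24 sets of 4 libraries, in which chance flags about 1 in 20. The sets of the median log2 ratio in IP, at 0 in every library, could not be examined.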

How the results depend on the processing

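Counts of intronic loci called depended on the setting. Counts under the alternatives are given without the share of all loci called in the same fit. They therefore do not compare intronic loci with other loci. For IP against input (2301 called) DESeq2 gave 1258, a filter of at least 10 counts in at least 8 libraries 361, batch a alone 247, batch b alone 179, and leaving out 1 fish 1069 to 1373. The fish as a block gave 0, the loci with a mean log2 CPM above 7 alone, of which 4 are intronic, gave 0, and the block changed no other count. For PC against MC in input (110) DESeq2 gave 630, no low-count filter 247, all 16 libraries in 1 fit 0, and leaving out 1 fish 74 to 265. For mirror against control in input (0) DESeq2 gave 6, no filter 12 and leaving out 1 fish 3 to 9, and for its species difference (0) they gave 11, 14 and 2 to 16. On IP enrichment, DESeq2 gave 88 for PC against MC, 78 for the mirror effect and 87 for its species difference, where edgeR gave 0, and limma-voom gave 2 for PC against MC. For locus minus host, PC against MC (53), the stricter filter gave 83, no batch term 98, a prior count of 0.5 gave 1, a prior count of 5 gave 149, and leaving out 1 fish 1 to 300. Leaving out a fish leaves 1 fish in a group, so more loci pass the filter and the lone fish is taken to vary like the others. Causes of the other moves were not tested. The difference of the log2 ratio of locus to host, PC minus MC in input, was -1.34, and -0.62 with at least 10 counts of both in every input (leaving out 1 fish, -1.51 to -1.17). The intronic share differed by 0.440 to 0.676 percentage points between IP and input and by -1.21 to -0.917 between PC and MC inputs when 1 fish was left out. RLE scaling put the median of all loci for IP against input at -4.87, where TMM put it at -4.97. The named loci past the threshold with up to 10 of the highest and 10 of the lowest fold changes per comparison kept their direction in every refit that gave a value, and their call in 427 of these refits, losing it in 99. These loci were picked on the same data by their direction and fold change, so the kept direction is a description and not a separate check. Loci named for other reasons, such as those of grm8, erbb4, lsamp, csmd1 and tcf4, were not followed through the refits. Within-batch signs for mirror against control were not counted, since no intronic locus was called. The limits are depth in IP, where most intronic loci are at 0, 2 fish per group, and tests over pairs of locus and host in which a host serves several loci.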
